A study of Mus musculus with 6 samples.

Results

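The listed AP-1 and immediate early genes were followed in RNA-seq of sorted mouse Paneth cells, the antimicrobial secretory cells of the small intestinal crypt. The 10 genes were Fos, Fosb, Jun, Junb, Jund, Egr1, Atf3, Ier2, Ier3 and Dusp1, taken by name from a deposited table of 55414 gene identifiers. Of these 10, 9 passed the low-count filter that left 9749 genes for testing, and Fosb did not. The question was whether these genes took the same order over the libraries as targets of the transcription factor NF-kB, such as Nfkbia, and whether they differed between the diets.

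All mice were wild-type (strain C57BL/6J in the study's methods) and all had received tumor necrosis factor (TNF) 3 hours before their Paneth cells were sorted by FACS. The 3 standard diet libraries stem from mice fed standard chow, and the 3 zinc depleted libraries from mice kept on zinc depleted chow for 7 weeks. Every library therefore carries both the TNF injection and the sort, and their effects on these genes cannot be told apart. Untreated mice are not analysed here, and the labels give no age. The study describes its samples as coming from individual mice. In sorted bulk samples, a change in the mix of cells and a change of RNA within the cells cannot be told apart.

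Immediate early genes are transcribed within minutes of a stimulus, from factors already present in the cell and without new protein synthesis. Growth factor, stress and cytokine signals reach them through MAP kinases, through serum response factor (SRF), which binds CArG boxes, through CREB and ATF proteins, which bind the cAMP response element (CRE), and through NF-kB. Fos, Fosb, Jun, Junb and Jund encode subunits of the dimeric transcription factor AP-1, Egr1 and Atf3 encode other transcription factors, Ier2 and Ier3 encode small stimulus-induced proteins, and Dusp1 encodes a phosphatase that switches MAP kinases off. Enzymatic and mechanical release of cells from tissue is known to induce many of them. Nfkbia encodes IκBα, the inhibitor that NF-kB induces to end its own activity.

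The promoters of these genes differ in the sites that link them to these inputs, and the stretches below show, in capitals, the matches found within 500 bases upstream of the canonical start site in the mouse build GRCm39, read 5′ to 3′ on the strand of the gene with 20 flanking bases where the window held them. The Fos stretch is chr12:85520335-85520384 (plus strand) and holds a CArG box 303 to 294 bases upstream, and the Fosb stretch is chr7:19044213-19044262 (minus strand), with a CArG box 266 to 257 bases upstream. The CRE stretches are chr8:71151365-71151412 (plus strand) for Jund, chr8:85389499-85389546 (minus strand) for Ier2 and chr17:26727562-26727609 (minus strand) for Dusp1. The Ier3 stretch is chr17:36132493-36132542 (plus strand) and the Nfkbia stretch is chr12:55539433-55539481 (minus strand), and both hold a match to the NF-kB site.
Fos CArG box: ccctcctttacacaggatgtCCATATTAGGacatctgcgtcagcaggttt
Fosb CArG box: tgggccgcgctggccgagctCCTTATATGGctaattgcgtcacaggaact
Jund CRE: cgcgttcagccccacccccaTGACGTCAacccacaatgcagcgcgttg
Ier2 CRE: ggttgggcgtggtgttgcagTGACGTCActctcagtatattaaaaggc
Dusp1 CRE: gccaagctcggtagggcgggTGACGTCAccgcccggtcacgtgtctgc
Ier3 NF-kB site: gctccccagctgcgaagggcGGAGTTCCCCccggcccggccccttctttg
Nfkbia NF-kB site: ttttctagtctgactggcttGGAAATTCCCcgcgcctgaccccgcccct

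A CArG box was found in 2 of the 10 promoters (Fos and Fosb), against 2.76% of the 21770 protein-coding promoters searched with the same window, both strands. The CRE, TGACGTCA, was found in 3 of the 10 (Jund, Ier2 and Dusp1), against 1.96% of all promoters. The AP-1 element (TGACTCA, both strands) was found in 0 of the 10, against 7.57%. A match to the NF-kB site was found in 3 of the 10 (Fos, Fosb and Ier3), against 12.3% of all promoters and 16 of 26 promoters of a list of NF-kB targets. It was also found in 8 of 18 promoters of a list of heat shock and other genes linked to dissociation of tissue. These matches describe letters in this window only. Atf3, Junb, Jun and Egr1 had no CArG box, CRE or NF-kB match in it. The window was set by the canonical start alone, and sites outside it were not searched. Absence from it therefore does not show that Egr1 or the others lack such sites.

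Standard diet replicates 1 and 2 were above the 4 other libraries in enterocyte, enteroendocrine, stem cell and proliferation markers and in ribosomal share. They did not stand apart in every measure. The TMM factor of zinc depleted replicate 1 was close to theirs, and its tuft cell markers were above those of standard diet replicate 1. The libraries held 6139397 to 12772373 counts. The TMM factors of edgeR, which correct the library size for differences in composition, were 1.73, 1.51 and 0.897 in standard diet replicates 1, 2 and 3 and 1.46, 0.639 and 0.459 in zinc depleted replicates 1, 2 and 3. Paneth cell markers (Lyz1, Mmp7, Ang4, Itln1, Defa24, Pla2g2a and Sox9) were counted in all 6 libraries and summed to 406382 to 542079 CPM (counts scaled to the same library total, here without TMM). The summed enterocyte list was 342 and 455 CPM in standard diet replicates 1 and 2 and 70.2 to 250 CPM elsewhere, enteroendocrine markers were 104 and 107 against 23.6 to 35.5 CPM, and stem cell markers were 3612 and 1371 against 474 to 1174 CPM. Proliferation markers were 177 and 95.3 against 35.1 to 74.5 CPM, tuft cell markers 136 and 574 against 21.4 to 144 CPM, and stromal and endothelial markers 3.30 to 6.89 CPM over all libraries. The 18S ribosomal RNA gene Rn18s took 2.56% and 2.91% of the counts in standard diet replicates 1 and 2 and 0.522% to 1.27% in the other libraries. The goblet list was highest in zinc depleted replicate 1, at 6468 CPM against 1547 to 2953 CPM, and most of that sum was Muc2 (4532 CPM). Clca1 and Spdef were also highest there. Agr2 and Tff3 were highest in other zinc depleted libraries, and Fcgbp and Zg16 in standard diet replicate 2. The immune list summed to 66.8 to 157 CPM, most of it Lyz2 and Cd74, with Cd3e at 0 in every library. The part of these markers and of the ribosomal share in the results below was not tested.

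The reference for the comparison was set by Nfkbia. Its TMM-scaled level (CPM, used below unless another scale is named) was 19.9, 23.5 and 181 on the standard diet (replicates 1, 2 and 3, always in this order) and 213, 175 and 202 under zinc depletion. The lowest of the last 4 libraries was 7.45 times the higher of standard diet replicates 1 and 2. Tnfaip3, which encodes the ubiquitin-editing inhibitor A20 and is another NF-kB target, followed with 1.42, 3.91 and 18.9 CPM and 30.7, 18.6 and 19.97 CPM.

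**Figure D1:**
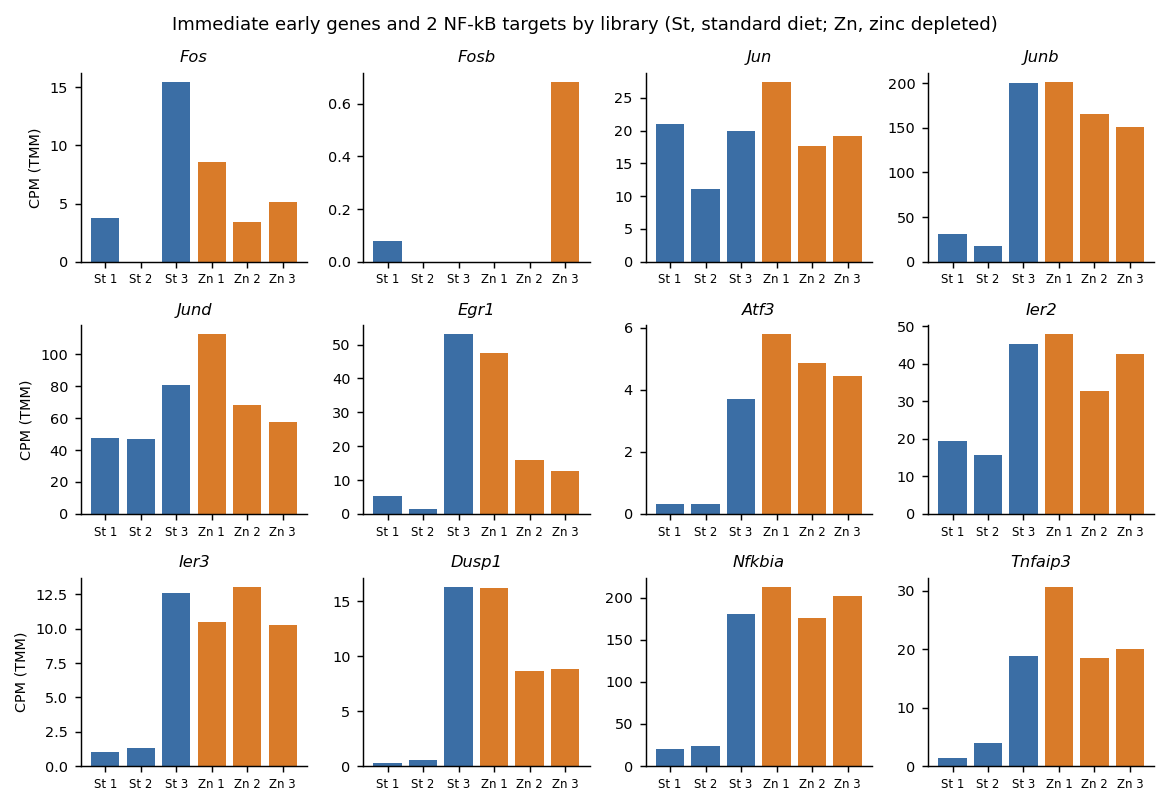
TMM-scaled level (CPM, linear axis from 0, a separate scale in each panel) of the 10 immediate early genes and the NF-kB targets Nfkbia and Tnfaip3, 1 bar per library, blue for standard diet and orange for zinc depleted. Junb, Atf3, Ier3, Dusp1, Nfkbia and Tnfaip3 are lowest in standard diet replicates 1 and 2, as are Egr1, Ier2 and Jund with smaller gaps. Fos, Egr1 and Dusp1 are highest in standard diet replicate 3, and Jun spans 11.1 to 27.4 CPM.

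Among the AP-1 subunits, Junb was lowest in standard diet replicates 1 and 2, as Nfkbia was, and Jun was not. Junb, a Jun family member often found to oppose Jun, was at 30.7, 17.7 and 200.4 CPM on the standard diet and at 201.0, 166 and 151 CPM under zinc depletion. Both low values belong to standard diet replicates 1 and 2, and the lowest of the 4 other libraries was 4.91 times the higher of them. Jun, the principal partner of Fos, was at 21.0, 11.1 and 19.9 CPM on the standard diet and at 27.4, 17.7 and 19.1 CPM under zinc depletion. Standard diet replicate 1 was the second highest library for Jun, and the whole range was 2.47-fold.

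Jund, the subunit that most cells express without a stimulus, was at 47.4, 47.0 and 80.5 CPM on the standard diet and at 112, 67.9 and 57.3 CPM under zinc depletion. Standard diet replicates 1 and 2 were again the lowest, but the gap to the next library was 1.21-fold, against 7.45-fold for Nfkbia. On total counts the gap closed: standard diet replicates 1 and 2 were no longer both below the 4 other libraries for Jund.

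Fos, the partner that makes stable AP-1 dimers with Jun proteins, had 47, 0 and 138 counts on the standard diet and 124, 16 and 30 under zinc depletion. In CPM these were 3.72, 0 and 15.4 on the standard diet and 8.53, 3.37 and 5.12 under zinc depletion. A count of 0 allows up to 3 counts (0.489 CPM of total counts) in standard diet replicate 2. Standard diet replicate 1 was above zinc depleted replicate 2, so Fos did not share the split of the libraries seen for Nfkbia. Fosb, its close relative, had 5 counts in all, 1 in standard diet replicate 1 and 4 in zinc depleted replicate 3, too few to place the libraries in any order, although its promoter holds the same kind of CArG box as that of Fos.

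Egr1, a zinc finger transcription factor induced by SRF, shared features with Fos. Its level was 5.14, 1.30 and 53.0 CPM on the standard diet and 47.4, 15.8 and 12.6 CPM under zinc depletion. With TMM, standard diet replicates 1 and 2 were the lowest, with a gap of 2.46-fold. Zinc depleted replicates 2 and 3 were also well below standard diet replicate 3 and zinc depleted replicate 1, which was not so for Nfkbia. On total counts it was so for Nfkbia too, with 112 and 92.5 CPM against 162 and 310 CPM. For Fos the top libraries were these same ones, standard diet replicate 3 and zinc depleted replicate 1.

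Atf3, a stress-induced repressor of the ATF and CREB family, was the rarest of the tested genes, with 4, 3 and 33 counts on the standard diet and 84, 23 and 26 under zinc depletion. Its levels were 0.316, 0.325 and 3.69 CPM on the standard diet and 5.78, 4.85 and 4.44 CPM under zinc depletion. The gap between standard diet replicates 1 and 2 and the other libraries was 11.3-fold. It was the only tested gene of the 10 whose diet groups did not overlap, a pattern that 3.51% of all tested genes had in the same direction. On total counts the groups overlapped, since Atf3 in standard diet replicate 3 (3.31 CPM) was above zinc depleted replicates 2 and 3 (3.10 and 2.04 CPM).

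Ier3, which protects cells from TNF-induced death and is itself known as an NF-kB target, was at 1.03, 1.30 and 12.6 CPM on the standard diet and at 10.5, 13.1 and 10.2 CPM under zinc depletion. Its 4 higher libraries lay close together and 7.87-fold above standard diet replicates 1 and 2. Ier2, a nuclear protein of the same early response, was at 19.4, 15.7 and 45.3 CPM on the standard diet and at 47.9, 32.9 and 42.7 CPM under zinc depletion, with a gap of 1.70-fold.

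Dusp1, the only phosphatase of the set, had the widest gap between standard diet replicates 1 and 2 and the other libraries among the tested genes of the set. It had 3, 5 and 146 counts on the standard diet and 236, 41 and 52 under zinc depletion, or 0.237, 0.542 and 16.3 CPM and 16.2, 8.64 and 8.87 CPM. The gap was 15.9-fold, and the highest library was 68.8 times the lowest, which had 3 counts. Within the 4 higher libraries, standard diet replicate 3 and zinc depleted replicate 1 were again the highest, as for Fos and Egr1. On total counts these were the highest libraries for Nfkbia as well.

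Counted as a list, 7 of the 9 tested genes (Junb, Jund, Egr1, Atf3, Ier2, Ier3 and Dusp1) had standard diet replicates 1 and 2 both below the 4 other libraries, which held for 14.2% of all tested genes. This split concerns only which libraries were lowest, not the full ranking. With TMM, Junb, for example, had standard diet replicate 3 in the second place and Nfkbia had zinc depleted replicate 3. On total counts both had standard diet replicate 3 there. Ier3 and Dusp1 then took the same order of all 6 libraries as Nfkbia. The split was chosen after the values were seen and depends on the scaling. On total counts, 4 of the 9 kept it (Junb, Atf3, Ier3 and Dusp1), against 2.10% of all tested genes. On that scale the gap was 4.999-fold for Dusp1, 3.73-fold for Atf3, 2.40-fold for Ier3 and 1.31-fold for Junb, beside 2.62-fold for Nfkbia.

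Of the NF-kB target list, 18 of 23 tested genes had this split with TMM and 10 of 23 on total counts. These counts include Nfkbia, whose levels gave the split, and Tnfaip3, and without them they were 16 of 21 and 8 of 21. The list of heat shock and other genes linked to dissociation of tissue had it in 4 of 15 with TMM (26.7%, against 14.2% of all tested genes) and in 0 of 15 on total counts, where the share of all tested genes was itself 2.10%. The most abundant genes of that list were the chaperones Hspa8 and Hsp90ab1 and the cytokine signalling inhibitor Socs3. Hspa8 was at 355, 293 and 431 CPM on the standard diet and at 230, 355 and 566 CPM under zinc depletion, with no break after standard diet replicates 1 and 2. Hsp90ab1 was highest in standard diet replicates 1 and 2, at 414 and 320 CPM against 237 to 262 CPM elsewhere. Socs3 was at 50.9 and 15.2 CPM in these libraries against 144 to 256 CPM elsewhere.

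**Figure D2:**
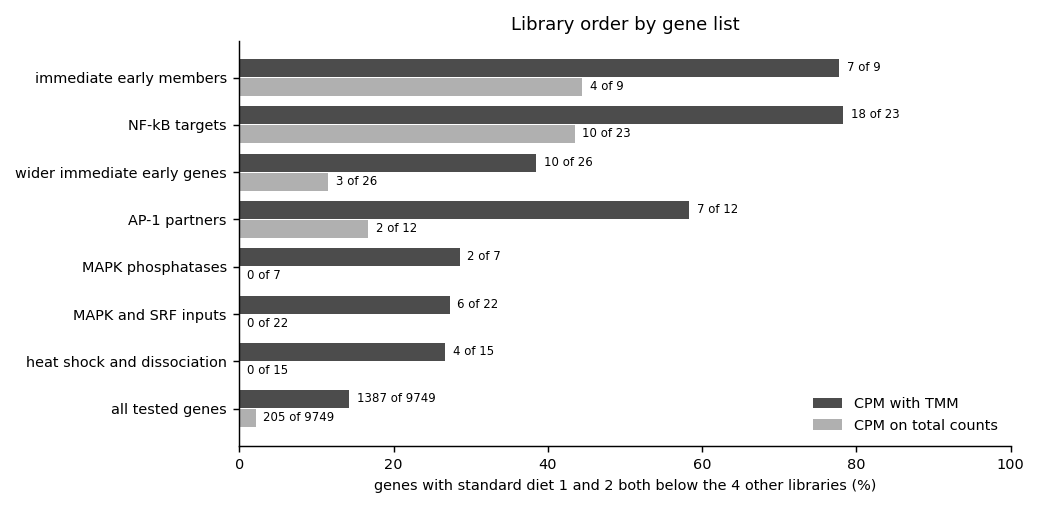
Share of the tested genes of each list, in percent, whose level in standard diet replicates 1 and 2 was below that in all 4 other libraries, with TMM scaling (dark bars) and on total counts (light bars), and the counts behind each share at the bar ends. The immediate early genes (7 of 9 and 4 of 9) and the NF-kB targets (18 of 23 and 10 of 23) have the longest bars, and heat shock and dissociation genes have 4 of 15 and 0 of 15.

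The ratio of a gene to Nfkbia within a library does not depend on the scaling, and it separated the genes further. For Atf3 the log2 ratio of counts (prior count 2) was -5.40, -5.45 and -5.53 on the standard diet and -5.17, -5.06 and -5.40 under zinc depletion. Its SD over the 6 libraries was 0.18, while the SD of the log2 level of Atf3 itself was 1.65. For Ier3 the ratio ran from -4.33 to -3.70 (SD 0.24, level 1.61) and for Junb from -0.42 to 0.62 (SD 0.39, level 1.54). Over these libraries, the ratios of these 3 genes to Nfkbia thus varied less than their levels. The same held, with wider ratios, for Dusp1 (SD 0.81, level 2.31), Egr1 (SD 1.03, level 1.95) and Fos (SD 1.55, level 2.15). It did not hold for Jun, Jund and Ier2. The levels spanned 11.4-fold (Junb), 12.7-fold (Ier3) and 18.3-fold (Atf3). An SD of the ratio under 0.5, a limit chosen after the values were seen, was found for 3 of the 9 genes and for 0.308% of all tested genes, and the median SD of all tested genes was 1.72.

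The ratios of the other genes moved. Jun was at 0.08 and -1.07 in standard diet replicates 1 and 2 and at -3.38 to -2.95 in the 4 other libraries, so its log2 ratio varied more (SD 1.45) than its log2 level (SD 0.42). Jund was at 1.25 and 0.99 against -1.81 to -0.92, and Ier2 was at -0.03 and -0.58 against -2.40 to -1.99. For Dusp1 the ratio went the other way, with -5.66 and -4.97 in standard diet replicates 1 and 2 and -4.45 to -3.45 elsewhere. Egr1 (SD 1.03) and Fos (SD 1.55) did not fall into these groups of libraries.

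The choice of reference mattered. Against Tnfaip3 the SD of the log2 ratio was 0.43 for Atf3, 0.49 for Ier3 and 0.73 for Junb, still the lowest of the 9 genes. Against the summed NF-kB targets it was 0.78 for Atf3, 0.73 for Ier3 and 0.78 for Junb, and Ier2 (0.58) and Jund (0.72) were then lower. With a prior count of 0.5 in place of 2 it was 0.32 for Atf3, whose lowest counts were 3 and 4.

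**Figure D3:**
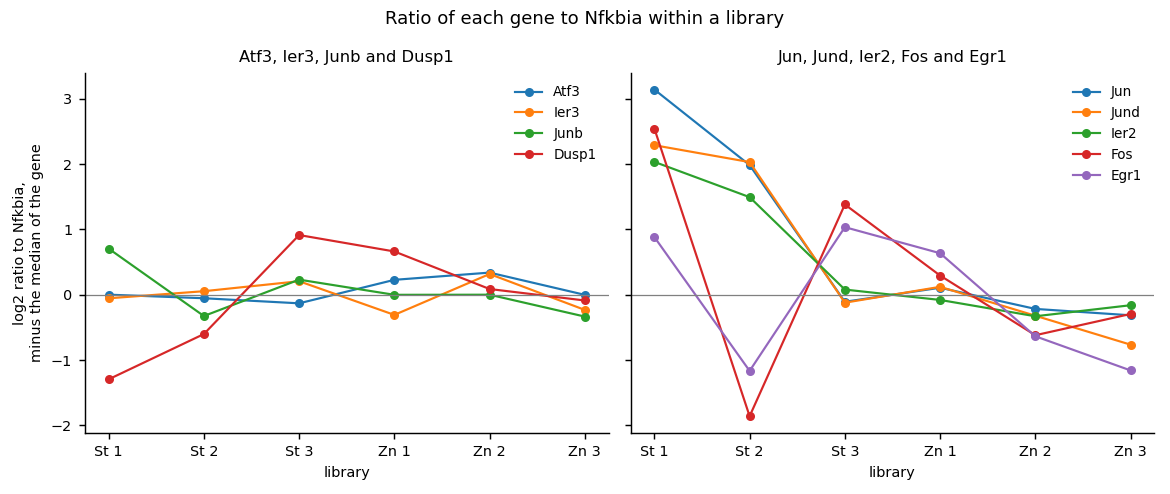
Log2 ratio of each gene to Nfkbia in each library (prior count 2), minus the median of that gene over the 6 libraries; points are libraries, joined only to guide the eye. Atf3, Ier3 and Junb vary least (SD 0.18, 0.24 and 0.39), Jun, Jund and Ier2 are high in standard diet replicates 1 and 2, and Fos and Egr1 follow neither pattern.

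No correlation coefficient with Nfkbia over the libraries is given, because the libraries fall into separate levels of Nfkbia (19.9 and 23.5 CPM against 175 to 213 CPM) and neither set reaches 6 libraries. Among the 4 libraries with high Nfkbia, its level with TMM spanned only 175 to 213 CPM, while Egr1 spanned 12.6 to 53.0 CPM and Fos 3.37 to 15.4 CPM. On total counts the spans were 92.5 to 310 CPM for Nfkbia, 5.79 to 69.0 CPM for Egr1 and 2.15 to 13.8 CPM for Fos.

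Genes outside the lists with the most similar pattern were sought by Pearson's r of log2 CPM over the 6 libraries among 4212 candidates, as a description, since the same separation of libraries enters each r. For Fos they were Tmem62, Dhx15 and Zfp330 (r = 0.97 each). For Jun they were Rmdn3 (0.97), Dctn4 (0.95) and Dhx15 (0.92), and for Egr1 Rrs1 (0.98), Arfgap1 (0.97) and Pde12 (0.97). Atf3 was nearest to Gnl2 (0.997), C1galt1 (0.995) and Lysmd3 (0.993), and Jund to Sbno2 (0.997) and Ceacam1 (0.994). Dhx15 stood in the list of both Fos and Jun.

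Per kilobase of canonical transcript, the mean level over the 6 libraries was highest for Nfkbia (86.0 CPM per kb), Junb (70.6) and Jund (41.2), followed by Ier2 (22.3), Ier3 (7.13), Jun (6.07), Egr1 (5.02), Dusp1 (4.26), Fos (2.85), Atf3 (1.63) and Fosb (0.0336). The ranges over the libraries overlapped for every pair of neighbours in this order. Jund was above Ier2, Ier2 above Ier3 and Atf3 above Fosb in 6 of 6 libraries, and the other neighbours changed places in at least 1 library. Among the AP-1 subunit genes of the set, Junb and Jund thus led at the RNA level in the means, with Fos and Fosb last. Other AP-1 genes, such as Fosl2, were not ranked.

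Between the diets, no immediate early gene passed the threshold. The edgeR quasi-likelihood test on all 9749 genes called 0 genes at an adjusted p under 0.05 (0% called; 645 genes had an unadjusted p under 0.05). DESeq2 called 10 genes, none of them among the 7 immediate early genes for which it gave an adjusted p. It gave none for Junb, Dusp1 and the reference Nfkbia. The log2 fold change, zinc depleted over standard diet, was positive for 8 of the 9 tested genes with a median of 0.62, beside a median of 0.00 over all tested genes.

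The highest fold change was that of Atf3, with 1.44 ± 1.95 CPM on the standard diet and 5.02 ± 0.688 CPM under zinc depletion (mean ± SD, n = 3 for all such values). Its log2 fold change was 1.83 (SE 0.82), and its adjusted p from edgeR was 0.681. Its unadjusted edgeR p of 0.0478 stands beside 2.58% of all tested genes that were higher under zinc depletion at an unadjusted p under 0.05. Ier3 had 4.99 ± 6.63 and 11.3 ± 1.58 CPM (log2 fold change 1.18, SE 0.78), Junb 82.9 ± 102 and 173 ± 25.8 CPM (1.06, SE 0.75) and Dusp1 5.70 ± 9.20 and 11.3 ± 4.32 CPM (1.01, SE 1.06). In each of these 4 genes the SD of the standard diet group was larger than its mean, and standard diet replicate 3 lay nearer to the zinc depleted libraries than to the other two. The adjusted p of Ier3, Junb and Dusp1 from edgeR lay between 0.700 and 0.789.

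Ier2 had 26.8 ± 16.1 and 41.1 ± 7.61 CPM, a log2 fold change of 0.62 (SE 0.45), and Jund 58.3 ± 19.3 and 79.2 ± 29.2 CPM (0.44, SE 0.42). For Egr1 the means were 19.8 ± 28.8 and 25.3 ± 19.2 CPM (0.37, SE 0.99), and for Jun 17.3 ± 5.46 and 21.4 ± 5.23 CPM (0.31, SE 0.39). Fos alone had a negative fold change, -0.14 (SE 1.02), with 6.38 ± 8.06 and 5.67 ± 2.62 CPM. The edgeR adjusted p-values of these genes lay between 0.709 and 0.973. Nfkbia, for comparison, had a log2 fold change of 1.40 with an SE of 0.74 and an adjusted p of 0.681 from edgeR.

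The size of these differences rested on which standard diet libraries were used. Without standard diet replicate 3, edgeR called 28 genes, 20 of them higher under zinc depletion, and 3 of these were immediate early genes. They were Dusp1 (log2 fold change 4.92, SE 0.67, adjusted p = 0.0199), Ier3 (3.31, SE 0.51, adjusted p = 0.0333) and Atf3 (3.97, SE 0.67, adjusted p = 0.0497). Junb, at 2.88 (SE 0.50), had an adjusted p of 0.0515 in that fit, and Nfkbia, at 3.23 (SE 0.48), one of 0.0283. Without standard diet replicates 1 and 2, a fit that assumes that the lone standard diet library varies like the others, 0 genes were called by edgeR (43 at an unadjusted p under 0.05). Only Atf3 (0.44) and Jun (0.10) then kept a positive log2 fold change, and that of Nfkbia was 0.12.

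**Figure D4:**
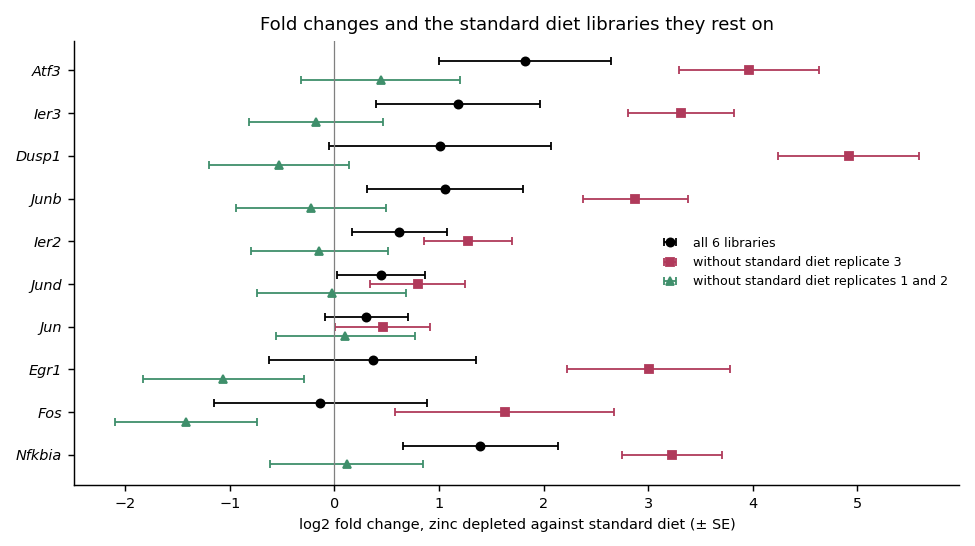
Log2 fold change (zinc depleted over standard diet, edgeR; bars are ± 1 SE) of the 9 tested genes and Nfkbia, with all 6 libraries (black), without standard diet replicate 3 (red) and without standard diet replicates 1 and 2 (green). Without replicate 3, Dusp1 moves from 1.01 to 4.92 and Atf3 from 1.83 to 3.97, and without replicates 1 and 2 most of the genes lie at or below 0.

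The diets were also compared on the log2 ratio to Nfkbia, another quantity, which does not depend on the scaling but carries the difference in Nfkbia itself. The mean log2 ratio differed by -1.39 for Ier2, whose groups did not overlap (exact two-sided permutation p = 0.1, the smallest that 3 libraries against 3 allow, adjusted p = 0.45 over 9 genes). It differed by -1.82 for Jun and by -1.72 for Jund (exact permutation p = 0.2 and adjusted p = 0.45 for both). For Atf3 the difference was 0.25 (exact permutation p = 0.2, adjusted p = 0.45). With a prior count of 0.5 in place of 2 it was 0.51 (exact permutation p = 0.1, adjusted p = 0.45). With the prior count of 2, the remaining genes had an exact permutation p of 0.4 to 0.6. Without standard diet replicate 1 the difference for Jun was -1.08, and without standard diet replicate 3 it was -2.71.

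The wider pathway was described from lists of the same early response. Of 37 other immediate early genes, 26 were tested and 0 were called by edgeR in either direction. At an unadjusted p under 0.05, 4 were higher under zinc depletion and 0 lower, beside 2.58% of all tested genes that were higher. The median log2 fold change was 0.34, and 18 of 26 were positive. Its most abundant genes were Mcl1, an inhibitor of apoptosis (24.8, 34.1 and 74.3 CPM against 71.5, 67.3 and 74.1 CPM, log2 fold change 0.68, SE 0.45), Zfp36, which marks inflammatory mRNAs for decay (1.10, SE 0.81), and Btg1 (0.32, SE 0.44). Standard diet replicates 1 and 2 were both lowest in 10 of the 26 with TMM (14.2% of all tested genes) and in 3 on total counts (2.10%).

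Of 19 AP-1 partners, 12 were tested and 0 were called by edgeR, with a median log2 fold change of 0.40. At an unadjusted p under 0.05, 1 was higher, beside 2.58% of all tested genes. With TMM, 7 of the 12 had standard diet replicates 1 and 2 both lowest (14.2% of all tested genes), and on total counts 2 had (2.10%). Atf4, the effector of the integrated stress response, was at 50.5, 55.6 and 140 CPM on the standard diet and at 108, 83.7 and 69.1 CPM under zinc depletion (0.09, SE 0.47). Fosl2, a Fos relative, was at 17.2, 14.2 and 43.0 CPM and at 86.7, 32.3 and 22.01 CPM (0.93, SE 0.58). Crem, a CREB family member, was low in standard diet replicates 1 and 2 as Atf3 was, with 2.14, 2.49 and 33.6 CPM and 26.4, 49.1 and 65.9 CPM (1.89, SE 0.89).

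Of the kinases and SRF cofactors upstream, 6 of 22 had standard diet replicates 1 and 2 both lowest with TMM (27.3%, against 14.2% of all tested genes), and 0 of 22 on total counts, where the share of all tested genes was 2.10%. None of the 22 was called by edgeR and 0 had an unadjusted p under 0.05. Their median log2 fold change was -0.17. Mapk3, which encodes ERK1, was at 86.2, 113 and 70.2 CPM on the standard diet and at 68.8, 52.5 and 44.5 CPM under zinc depletion (-0.70, SE 0.38), and Rps6ka1, a kinase that ERK activates, had a fold change of -0.31 (SE 0.35).

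Of 10 other MAP kinase phosphatases, 7 were tested, with 0 calls by edgeR, 0 at an unadjusted p under 0.05 and a median log2 fold change of 0.63. The most abundant were Dusp16 (0.63, SE 0.44), Dusp8 (1.45, SE 0.67) and Dusp5 (0.78, SE 0.59). Standard diet replicates 1 and 2 were both lowest in 2 of the 7 with TMM (14.2% of all tested genes) and in 0 on total counts (2.10%).

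In the NF-kB target list, 23 of 26 genes were tested, 22 had a positive log2 fold change with a median of 1.00, and 0 were called by edgeR. At an unadjusted p under 0.05, 2 were higher and 0 lower, beside 2.58% of all tested genes that were higher. After Nfkbia, the most abundant were Nfkb2 and Bcl3, which encode members of the NF-kB and IκB families, and Birc3, an inhibitor of cell death. Birc3 was at 5.30, 13.3 and 66.6 CPM on the standard diet and at 80.6, 56.5 and 47.6 CPM under zinc depletion (1.12, SE 0.73). Bcl3 was at 12.7, 19.0 and 76.7 CPM and at 109, 41.3 and 24.6 CPM (0.70, SE 0.70). Nfkb2 did not have the split, with 65.4 CPM in standard diet replicate 2 and 32.8 CPM in zinc depleted replicate 3 (0.46, SE 0.68). Of the heat shock and dissociation genes, 0 of 15 were called by edgeR, and the median was 0.19. At an unadjusted p under 0.05, 1 was lower, beside 393 of all 9749 tested genes.

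In GRCm39, Jun (chr4:94937271-94940459, minus strand), Junb (chr8:85701113-85705359, minus strand), Jund (chr8:71151599-71153265, plus strand) and Ier2 (chr8:85387960-85389483, minus strand) have 1 exon each in their canonical transcript, and Fos (chr12:85520658-85524047, plus strand), Atf3 (chr1:190902493-190950241, minus strand) and Dusp1 (chr17:26724564-26781102, minus strand) have 4. Some of these genes share exonic bases with a gene on the opposite strand, and whether the counting used strand is not given in the sources used here. Jun shares 528 bases with Junos (0 to 8 counts), Jund shares 877 with Gm11175 (1 to 21 counts), and Dusp1 shares 38 with Ergic1 (422 to 1975 counts). Junb shares 173 bases with Prdx2, whose 376 to 874 counts were not low in standard diet replicates 1 and 2 (841 and 526). Ier3 shares 396 bases with Gm66231, which was not analysed here, and Nfkbia shares 141 with Gm36634 (0 counts in every library). Values of these genes are uncertain to that extent.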

How the data were processed

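RNA was sequenced from FACS-sorted Paneth cells in 6 libraries, 3 per diet. The deposited values are raw read counts for each gene, 1 column per library. The submitters' processing notes name FastQC, Trimmomatic 0.39, STAR 2.7.10a and DESeq2. The study's methods name the build GRCm39 for the study's own alignment of its samples, made with another release of STAR. How reads were counted (program, strand, reads with several matches) is not given in the sources used here. Gene symbols, positions, transcript lengths and promoters were taken from GENCODE M39 on GRCm39, in which 54749 of the 55414 identifiers were found.

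The diets were compared with the edgeR 4.0.16 quasi-likelihood test in R 4.3.3 (TMM, filterByExpr, diet as the only term, two-sided). Benjamini-Hochberg adjustment ran over all 9749 tested genes, with calls at an adjusted p under 0.05. Standard errors are the absolute log2 fold change over the root of the F statistic. The procedure was tested on simulated data. Levels are CPM with TMM factors, and log2 values used a prior count of 2. Ratios to Nfkbia were compared by exact permutation of the 6 libraries. The study's own tool, DESeq2 1.42.0, and limma-voom (limma 3.58.1) were alternatives, as were other scalings, no filter on low counts, the replicate number as a block, and leaving out each library.

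The named genes were the 10 members, Nfkbia and its alternative reference Tnfaip3, the 3 most abundant tested genes of each other list, and the 3 genes most like Fos, Jun, Egr1, Atf3 and Jund with a mean log2 CPM of at least 3. Some genes that this rule names are not reported here. Members, lists and markers were chosen with earlier results of these data known. The study describes samples from individual mice, although the labels do not name the mouse of each library. The series text speaks of 4 replicates per group, and 3 per group were analysed. Within each diet, no 2 libraries were alike within the noise of sampling. A count of 0 allows up to 3 counts, 0.235 to 0.489 CPM of total counts by library, which covers counting error only.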

Additional observations from a re-analysis of the deposited data

How the results depend on the processing

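The count of genes called between the diets was 0 with edgeR, 10 with DESeq2 and 76 with no filter on low counts, and 0 to 28 when 1 library was left out, with the 28 found without standard diet replicate 3. No immediate early gene was called without the filter or by DESeq2, which gave Junb, Dusp1 and the reference Nfkbia no p-value. Their median log2 fold change (0.62) was 0.35 to 2.88 with 1 library left out and -0.17 without standard diet replicates 1 and 2, an alternative added after seeing the data. With limma-voom the median was 1.81, with 3.27 for Dusp1, 2.84 for Atf3, 2.18 for Ier3, 1.81 for Junb and 1.60 for Egr1, and no gene was called (625 at an unadjusted p under 0.05). Without standard diet replicates 1 and 2, the edgeR log2 fold change was -0.22 for Junb, -0.027 for Jund and -1.06 for Egr1. It was -0.14 for Ier2, -0.17 for Ier3 and -0.53 for Dusp1. With 1 library left out, the log2 fold change was -0.47 to 3.01 for Egr1 and -0.72 to 1.63 for Fos. The sign for Fos also turned with limma-voom (1.88) and that for Jun with total counts (-0.24), a scaling that moves the median of all tested genes to -0.67. The causes were not tested. The median over the 9 genes of the diet difference in log2 ratio to Nfkbia (-0.64) was 0.23 with the summed NF-kB targets as the reference. Rank correlation with Nfkbia over the 6 libraries passed an adjusted exact p under 0.05 for 0 genes with TMM (1, Ier2, before adjustment). On total counts it did so for 4 genes (Junb, Atf3, Ier3 and Dusp1). These libraries fall into separate levels of Nfkbia.

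Whether the replicate numbers pair the libraries is not given by the labels, and 3 libraries per group cannot decide it. Same-numbered libraries had correlations of their deviations of 0.147, -0.058 and 0.248. Standard diet replicates 1 and 3 correlated best with the zinc depleted library of the same number. Standard diet replicate 2 correlated best with zinc depleted replicate 1 (0.250). With the replicate block, 0 genes were called by edgeR (962 at an unadjusted p under 0.05, against 645 without it), the median of the 9 genes was 1.83 and Fos had a log2 fold change of 0.89. With 3 libraries per group and 3 to 5 counts of Atf3 and Dusp1 in the lowest libraries, fold changes of these genes are imprecise.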
